A study of Mus musculus with 17 samples.

Results

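Genes of potassium channels that set the tone of arteries, 9 in all, were followed through bulk RNA-seq of mouse brain samples. They were chosen by symbol from the count matrix, as genes of ATP-sensitive (KATP), inward rectifier, voltage-gated (Kv) and large-conductance calcium-activated (BK) channels: Kcnj8, Abcc9, Kcnj2, Kcnj12, Kcna5, Kcnq5, Kcnma1, Kcnmb1 and Kcnmb4. All 9 were in the matrix, which holds 21640 genes. The study asked how arteriolar smooth muscle cells (aSMCs) receive and answer signals from neurons. The libraries fell into 4 groups. Ai47 aSMCs (6 libraries) were EGFP-positive cells sorted from vessel-enriched brain tissue of SMACreER:Ai47 adults, where Cre driven by the smooth muscle actin promoter and activated by tamoxifen switches on the reporter. Cells with the endothelial protein CD31 or the leukocyte protein CD45 were sorted out. Ai14 aSMCs (2 libraries) were tdTomato-positive cells of adult SMACreER:Ai14 mice, and astrocytes (3 libraries) were tdTomato-positive cells of adult hGFAPCreER:Ai14 mice, labelled through a human GFAP promoter. Cortex (6 libraries) was homogenate, given as wild type in the labels and described in the study as material of the dissociated cortices that was kept before sorting. As many mice as samples are given in the study for sorted aSMCs and for cortex, in a legend that names the Ai14 line for the aSMCs. For the Ai14 aSMCs and astrocytes analysed here no source used says whether libraries came from separate animals, so p-values that involve them measure the spread between libraries, which may be technical.

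Potassium channels let potassium leave the cell, which draws the membrane potential away from the threshold of voltage-gated calcium channels and lets an artery relax. In arterial muscle, KATP channels are built of the pore subunit encoded by Kcnj8 and the sulphonylurea receptor encoded by Abcc9. Kcnj2 and Kcnj12 encode inward rectifiers that respond to potassium around the cell, and Kcna5 and Kcnq5 encode Kv pores. BK channels open with calcium and depolarization; Kcnma1 encodes their pore, Kcnmb1 the β1 subunit best known from smooth muscle and Kcnmb4 the β4 subunit best known from neurons.

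Library totals were 41499087 to 53643624 counts in Ai47 aSMCs, 14870507 and 14979228 in Ai14 aSMCs, 4537137 to 7390630 in astrocytes and 5397905 to 7288036 in cortex. The mitochondrial share of counts was 0.214% to 0.559% in Ai47 aSMCs, 16.8% and 17.6% in Ai14 aSMCs, 10.7% to 12.5% in astrocytes and 35.7% to 72.9% in cortex. Levels are CPM values, counts relative to the library total, after TMM scaling over the 17 libraries, and levels of different genes are compared only per kb of annotated exon. Differences are log2 fold changes with standard errors from edgeR's quasi-likelihood test, and "rose" or "fell" is used at an adjusted p under 0.05. All 8 smooth muscle markers rose in Ai47 aSMCs and all 8 rose in Ai14 aSMCs, against cortex, where 33.6% and 3.97% of all genes tested rose. Of 8 astrocyte markers, 2 (Gja1 and Sox9) rose and 1 (Slc1a2) fell in astrocytes against cortex, where 14.6% of all genes rose and 19.8% fell. In Ai47 aSMCs the astrocyte marker Gja1 averaged 1090 CPM and the collagen gene Col1a1 1740 CPM, against 58.0 CPM and 1.31 CPM in cortex. The other markers of those cell types did not all go with them. Of the 8 astrocyte markers, 2 (Gja1 and Sox9) rose and 5 fell in Ai47 aSMCs against cortex, beside 33.6% and 25% of all genes. Of 3 fibroblast markers tested there, Col1a1 rose, Pdgfra fell and Dcn did not pass. Among genes averaging at least 100 counts, 0.97% (70 of 7220) had counts within 5% of each other in all 6 Ai47 libraries, and 0 of 3967 did in cortex. No channel gene was among them.

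Kcnmb1, the β1 subunit gene of the BK channel, was high in both aSMC groups and in sorted astrocytes and low in cortex. It ranged over 5.98 to 62.2 CPM (median 30.3) in Ai47 aSMCs, was 120.5 and 130.0 CPM in Ai14 aSMCs, 55.2, 19.5 and 57.7 CPM in astrocytes, and 0 to 5.34 CPM (median 1.03) in cortex. Every library of the 3 sorted groups lay above every cortex library. Kcnmb1 rose by 4.21 ± 0.91 (SE) on the log2 scale in Ai47 aSMCs against cortex (edgeR adjusted p = 0.00076), by 6.16 ± 0.99 in Ai14 aSMCs against cortex (adjusted p = 0.00043) and by 4.65 ± 0.91 in astrocytes against cortex (adjusted p = 0.00073). These 3 comparisons share the cortex libraries. The Kcnmb1 call held in each alternative run for these comparisons, with adjusted p of 4.3e-07 to 0.035 for Ai47 aSMCs, 6.3e-06 to 0.012 for Ai14 aSMCs and 1.1e-05 to 0.014 for astrocytes. The size depended on the cortex libraries: without cortex replicate 4, the highest, the difference of Ai47 aSMCs from cortex was 5.08, and without cortex replicate 2, which had no Kcnmb1 counts, that of Ai14 aSMCs was 5.52. Without cortex replicates 1 to 3 together, the differences were 3.44 in Ai47 aSMCs, 5.41 in Ai14 aSMCs and 3.91 in astrocytes. Without cortex replicates 4 to 6 together, they were 5.88, 7.43 and 5.97 in these groups. Because these are bulk samples, fewer cells of a type and less RNA per cell cannot be told apart.

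Between the sorted groups, Kcnmb1 was not shown to differ. The difference was -2.0 ± 0.93 for Ai47 aSMCs over Ai14 aSMCs (edgeR adjusted p = 0.12), although every Ai47 library lay below both Ai14 libraries, and -0.49 ± 0.86 for Ai47 aSMCs over astrocytes (adjusted p = 0.66). Ai14 aSMCs lay 1.51 ± 1.12 above astrocytes (adjusted p = 0.37), and their libraries did not overlap with the astrocyte libraries. With library totals alone as the scale, Kcnmb1 was lower in Ai47 aSMCs than in Ai14 aSMCs (-4.20, adjusted p = 0.00092) and than in astrocytes (-2.80, adjusted p = 0.0072); that scale moved the median of all genes by -2.18 and -2.11. Kcnmb1 lies on chromosome 11 (GRCm38, chr11:33963013-33973641, plus strand), within the gene Kcnip1 on the other strand, and their exons do not overlap. Kcnip1 had no counts in the 3 astrocyte libraries, a count of 0 that allows up to 0.078 CPM over the group.

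Most smooth muscle markers were lower in the astrocytes that had Kcnmb1 than in cortex, but the means of Acta2, Myl9 and Cnn1 were higher. Myh11, the smooth muscle myosin heavy chain and a defining marker, was 1.12, 4.06 and 0.253 CPM in the astrocyte libraries with 55.2, 19.5 and 57.7 CPM of Kcnmb1. In cortex, Myh11 was 4.49 to 67.9 CPM. Acta2 went the other way on average, with 63.6 CPM in astrocytes (33.3 to 83.1) and 30.5 CPM in cortex (7.36 to 48.6). Over the 8 smooth muscle markers, 1 (Myl9, 1.4 to 245 CPM in astrocytes and 4.37 to 23.5 CPM in cortex) rose and 5 fell in astrocytes against cortex, beside 14.6% and 19.8% of all genes. Their summed level was 89.3 to 283 CPM in astrocytes and 28.5 to 138 CPM in cortex, with no marker at 0 in either group as a whole. As a share of the Ai14 aSMC mean, astrocytes held 35.2% of Kcnmb1, 0.044% of Myh11, 2.43% of the actin gene Acta2 and 10.7% of Myl9. The plot of BK subunit genes against Myh11 sets these values side by side.

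**Figure D1:**
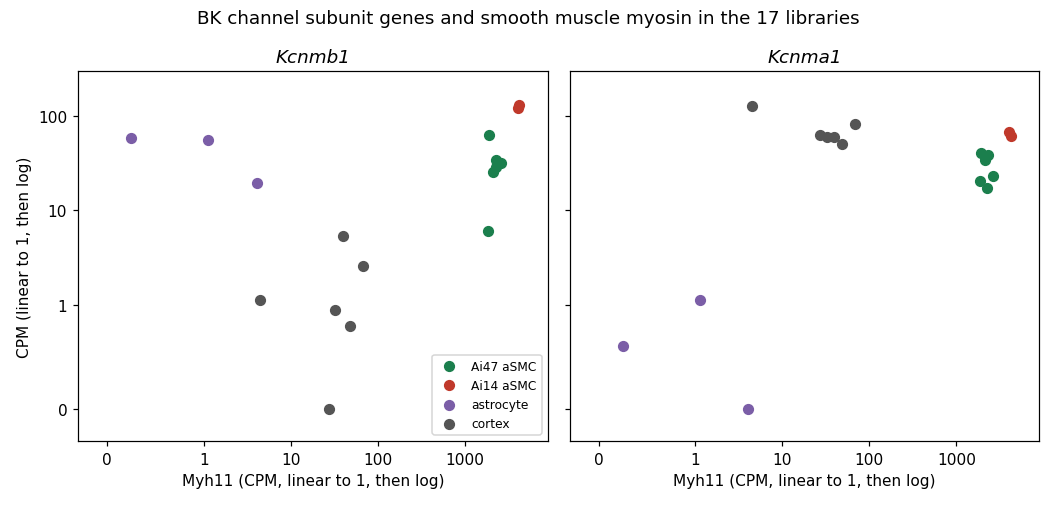
CPM of Kcnmb1 (left) and Kcnma1 (right) against CPM of the smooth muscle myosin gene Myh11, 1 point a library, in Ai47 aSMCs, Ai14 aSMCs, astrocytes and cortex; both axes are linear to 1 CPM and logarithmic above. The 3 astrocyte libraries have 19.5 to 57.7 CPM of Kcnmb1 with at most 4.06 CPM of Myh11 and at most 1.12 CPM of Kcnma1.

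Kcnma1, the BK pore gene, was present in aSMCs and highest in cortex on average. It ranged over 17.4 to 40.3 CPM (median 28.7) in Ai47 aSMCs, was 66.7 and 60.9 CPM in Ai14 aSMCs, 1.12, 0 and 0.606 CPM in astrocytes, and 49.8 to 127.5 CPM (median 61.0) in cortex. The Ai47 libraries all lay below the cortex libraries, the Ai14 libraries lay within the range of cortex, and the astrocyte libraries lay far below all others. Kcnma1 fell by 1.25 ± 0.36 in Ai47 aSMCs against cortex (edgeR adjusted p = 0.0073) and fell by 6.94 ± 0.95 in astrocytes against cortex (adjusted p = 3.1e-05). It was 5.60 ± 0.89 higher in Ai47 aSMCs than in astrocytes (adjusted p = 4.3e-05) and 6.74 ± 0.99 higher in Ai14 aSMCs than in astrocytes (adjusted p = 9.5e-05). Neither Ai14 aSMCs against cortex (-0.20 ± 0.75, adjusted p = 0.93) nor Ai47 aSMCs against Ai14 aSMCs (-1.14 ± 0.70, adjusted p = 0.25) passed. With the 6 Ai47 columns entered as 1 library, the difference from cortex was as large (-1.42) but not past the threshold (adjusted p = 0.16). In that fit, here and below, a lone library is assumed to vary like the other groups, so fewer calls follow from its design. Astrocyte replicate 2 had no Kcnma1 counts. Without it, Ai14 aSMCs lay 6.13 above astrocytes. Without astrocyte replicate 1, the differences were -7.84 for astrocytes over cortex, 6.63 for Ai47 aSMCs over astrocytes and 7.36 for Ai14 aSMCs over astrocytes.

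Kcnmb4, the β4 subunit gene, was low in the sorted groups and high in cortex, the reverse of Kcnmb1 in the contrast with cortex only. It ranged over 0.162 to 0.663 CPM (median 0.276) in Ai47 aSMCs, was 1.31 and 1.58 CPM in Ai14 aSMCs, 2.90, 0 and 0.859 CPM in astrocytes, and 6.62 to 29.8 CPM (median 11.5) in cortex. Every sorted library lay below every cortex library. Kcnmb4 fell by 5.12 ± 0.68 in Ai47 aSMCs (edgeR adjusted p = 6.8e-06) and fell by 3.43 ± 1.17 in astrocytes (adjusted p = 0.029), both against cortex, and was -3.23 ± 1.38 in Ai14 aSMCs against cortex (adjusted p = 0.19), which DESeq2 called lower (-3.75, adjusted p = 0.00063). The astrocyte call was lost without astrocyte replicate 3 (-3.39, adjusted p = 0.055) and without cortex replicates 1 to 3 (-2.95, adjusted p = 0.12) and with library totals alone (-2.40, adjusted p = 0.12), and without astrocyte replicate 1 the difference was -5.00. Neuronal transcripts were also lower in the sorted groups than in cortex. The 10 neuron markers summed to 4.63 to 51.2 CPM in Ai47 aSMCs, 20.4 and 22.5 CPM in Ai14 aSMCs, 0.187 to 11.1 CPM in astrocytes and 541.9 to 876 CPM in cortex. Among the sorted groups, astrocytes had the lowest mean neuron sum (4.81 CPM, against 18.7 CPM in Ai47 aSMCs). Their mean of Kcnmb4 (1.25 CPM) was above that of Ai47 aSMCs (0.353 CPM). That Kcnmb4 difference did not pass (-1.81 ± 0.95 for Ai47 aSMCs over astrocytes, edgeR adjusted p = 0.12). DESeq2 called it lower (-1.855, adjusted p = 0.048). Most of the Ai47 neuron sum was Stmn2 (mean 9.53 CPM) and Nrgn (8.46 CPM). Those 2 rose and 3 others (Snap25, Syn1 and Tubb3) fell in Ai47 aSMCs against astrocytes, beside 26.1% and 23.8% of all genes. In Ai47 aSMCs 3 neuron markers (Syn1, Rbfox3 and Slc17a7) were at 0. The part of neuronal transcripts in the Kcnmb4 difference was not tested. Antisense transcripts annotated across Kcnmb4 exons are not counted in the matrix, and no source used here gives the strand setting of the counting.

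The balance of the subunits within a library does not depend on scaling between libraries. Per kb of exon, Kcnmb1 was 1.20 to 7.95 times Kcnma1 in Ai47 aSMCs (median 4.33), 7.32 and 8.64 times in Ai14 aSMCs, 199 and 385 times in the 2 astrocyte libraries with Kcnma1 counts, and 0 to 0.362 times in cortex (median 0.0646). The 4 groups' ranges of this ratio overlapped only between Ai47 and Ai14 aSMCs. Kcnmb4 per kb was 0.0214 to 0.195 times Kcnma1 in Ai47 aSMCs, 0.100 and 0.132 times in Ai14 aSMCs and 0.567 to 1.19 times in cortex. Per kb, Kcnmb1 was above Kcnmb4 in every aSMC library, and Kcnmb4 was above Kcnmb1 in every cortex library. The astrocyte ratios rest on 12 Kcnma1 counts in each of those 2 libraries. The matrix does not separate isoforms, and annotation lists 38 Kcnma1 transcripts; with the longest transcript as length the pooled Kcnmb1 ratio was 3.14 in Ai47 aSMCs, 5.66 in Ai14 aSMCs, 227 in astrocytes and 0.0527 in cortex.

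**Figure D2:**
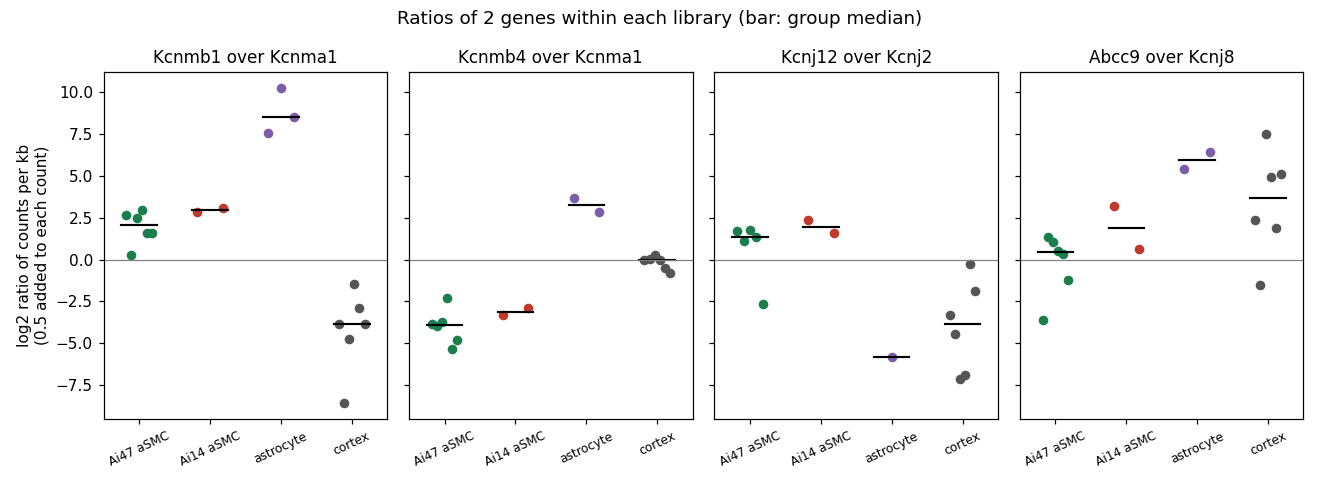
Log2 ratio of 2 genes within each library, from counts per kb of exon with 0.5 added to each count, for Ai47 aSMCs, Ai14 aSMCs, astrocytes and cortex; points are libraries with at least 10 counts over both genes and bars are group medians. For Kcnmb1 over Kcnma1 the medians are 2.04 in Ai47 aSMCs, 2.99 in Ai14 aSMCs, 8.53 in astrocytes and -3.84 in cortex.

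The 3 BK subunit genes differ in the sequence before their RefSeq start. The GENCODE annotation starts the minus-strand genes Kcnmb4 and Kcnma1 further out, at chr10:116473878 and chr14:24014491. The windows of these 2 genes therefore lie within the annotated genes. The 250 bases upstream of the RefSeq start of each gene (GRCm38.p6) are shown because the β1 and β4 genes moved in opposite directions against cortex. Capitals mark the letters GGGCGG, the core of a GC box, or their reverse complement CCGCCC.
Kcnmb1 (chr11:33962763-33963012, plus strand): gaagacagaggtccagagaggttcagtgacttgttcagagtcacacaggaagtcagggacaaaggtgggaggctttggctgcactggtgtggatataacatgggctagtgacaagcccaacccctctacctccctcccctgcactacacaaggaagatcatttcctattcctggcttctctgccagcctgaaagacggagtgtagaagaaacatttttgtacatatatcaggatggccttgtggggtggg
Kcnmb4 (chr10:116473524-116473773, minus strand): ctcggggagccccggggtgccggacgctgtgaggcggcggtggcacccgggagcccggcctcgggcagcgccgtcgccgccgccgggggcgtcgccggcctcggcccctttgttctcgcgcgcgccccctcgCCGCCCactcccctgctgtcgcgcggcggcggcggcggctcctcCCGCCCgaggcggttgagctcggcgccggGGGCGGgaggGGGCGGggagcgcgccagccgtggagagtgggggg
Kcnma1 (chr14:24004206-24004455, minus strand): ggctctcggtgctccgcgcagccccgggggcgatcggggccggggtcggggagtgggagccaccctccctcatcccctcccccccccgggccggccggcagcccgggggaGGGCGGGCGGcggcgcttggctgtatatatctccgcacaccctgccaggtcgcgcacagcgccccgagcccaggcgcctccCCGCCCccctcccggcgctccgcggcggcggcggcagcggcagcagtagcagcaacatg
GC content was 50.8% for Kcnmb1, 83.6% for Kcnmb4 and 79.2% for Kcnma1, against a median of 52.4% over 32851 RefSeq windows of this length. On both strands GGGCGG occurred 4 times for Kcnmb4, 3 times for Kcnma1, where 2 of the matches overlap, and not for Kcnmb1. It occurs in 32.74% of all windows. The CArG box (by name, the motif bound by serum response factor, present in 1.467% of windows) and TATAAA (12.37% of windows) had no match before any of the 9 genes. Of the other 6 genes, all of which matched a RefSeq window, Abcc9 had 1 GGGCGG match and Kcnj2 had 2, and Kcnj8, Kcnj12, Kcna5 and Kcnq5 had none. The Kcnj12 window also lies within its annotated gene, and the Abcc9 window does so in part. A match describes these letters only.

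The KATP pore gene Kcnj8 was low in every library except Ai47 replicate 1. It ranged over 0.285 to 11.6 CPM (median 0.405) in Ai47 aSMCs, was 0.365 and 1.0 CPM in Ai14 aSMCs, 0, 0.127 and 0 CPM in astrocytes, and 0 to 1.55 CPM (median 0.384) in cortex. The Ai47 mean of 2.32 CPM rests on replicate 1, with 222 of the 280 counts of the group; without it the mean was 0.460 CPM. Against cortex, Kcnj8 was below the count filter in the fit of 12 libraries, and the groups overlapped (exact permutation p = 0.47, two-sided). Counts summed over libraries were 76.3 times as high in Ai47 aSMCs as in astrocytes relative to library size (95% Clopper-Pearson interval 13.6 to 3030, from 280 counts and 1 count, counting error only), and 18.3 times (3.16 to 735) without Ai47 replicate 1. That difference passed (edgeR adjusted p = 0.029), and it was lost without Ai47 replicate 1 (adjusted p = 0.076), without astrocyte replicate 1 (adjusted p = 0.077) and without astrocyte replicate 3 (adjusted p = 0.079), and also with library totals alone (adjusted p = 0.11) and with the Ai47 columns as 1 library (5.69, adjusted p = 0.14). The fitted difference of 5.84 was 3.82 without Ai47 replicate 1, 6.53 to 6.59 without any other Ai47 library and 8.62 without astrocyte replicate 2. DESeq2 gave that difference as 6.29, with no adjusted p. In Ai14 aSMCs, Kcnj8 was not past the threshold against cortex (adjusted p = 0.97) or astrocytes (adjusted p = 0.20).

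Abcc9, the regulatory partner of Kcnj8, did not share its pattern. Abcc9 ranged over 1.24 to 3.14 CPM (median 2.15) in Ai47 aSMCs, was 11.6 and 5.15 CPM in Ai14 aSMCs, 6.56, 0.254 and 7.28 CPM in astrocytes, and 1.27 to 37.9 CPM (median 15.6) in cortex. Cortex replicate 2 alone overlapped with the Ai47 libraries. Abcc9 fell by 2.98 ± 0.71 in Ai47 aSMCs against cortex (edgeR adjusted p = 0.0017; exact permutation p = 0.013), and with the Ai47 columns as 1 library the difference was -3.22 (adjusted p = 0.15). It passed in no other comparison in edgeR with TMM scaling, with differences of -1.15 ± 1.17 for Ai14 aSMCs over cortex, -1.97 ± 1.04 for astrocytes over cortex and -1.92 ± 1.01 for Ai47 over Ai14 aSMCs. DESeq2 called it lower in astrocytes than in cortex (-2.21, adjusted p = 0.032), and library totals alone did so in Ai47 aSMCs against Ai14 aSMCs (-4.16, adjusted p = 0.0028) and against astrocytes (-3.52, adjusted p = 0.0043). The KATP genes are neighbours on chromosome 6, with Kcnj8 at chr6:142564837-142571614 and Abcc9 at chr6:142587862-142702315, both on the minus strand, 16247 bases apart with no annotated gene between them. Per kb, Abcc9 was 0.0822 to 2.74 times Kcnj8 in Ai47 aSMCs and 9.64 and 1.57 times in Ai14 aSMCs. In cortex, 2 libraries had Abcc9 with no Kcnj8 counts and the other 4 had ratios of 0.348 to 46.6. An antisense gene that overlaps Abcc9 exons is not in the matrix. Pericytes are known for high Kcnj8 and Abcc9. The 8 pericyte markers summed to 3099 to 6310 CPM in Ai47 aSMCs, 7977 and 11050 CPM in Ai14 aSMCs, 6.09 to 17 CPM in astrocytes and 274 to 738 CPM in cortex. In both aSMC groups most of that sum was Rgs5, with a mean of 3490 of 4272 CPM in Ai47 and 8190 of 9512 CPM in Ai14 aSMCs. Against cortex, 6 of the markers rose and 1 fell in Ai47 aSMCs, beside 33.6% and 25% of all genes. In Ai14 aSMCs 6 rose and 0 fell, beside 3.97% and 2% of all genes. The part of pericytes in the KATP values was not tested.

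Kcnj12 was highest in Ai14 aSMCs, and Kcnj2 was not shown to differ between Ai14 aSMCs and cortex (-0.21 ± 1.34, edgeR adjusted p = 0.965). Kcnj12 ranged over 0 to 6.37 CPM (median 0.405) in Ai47 aSMCs, was 21.6 and 17.6 CPM in Ai14 aSMCs, had no counts in astrocytes, and ranged over 0 to 6.20 CPM (median 0.154) in cortex. Both Ai14 libraries lay above all others, but the difference from cortex, 4.16 ± 1.76, did not pass (edgeR adjusted p = 0.19). One cortex library decided that: without cortex replicate 5, which held 24 of the 29 cortex counts, the difference was 6.89 and passed (adjusted p = 0.036). It also passed with library totals alone (5.66, adjusted p = 0.0498). The difference of Ai47 from Ai14 aSMCs was -3.82 ± 1.72 and did not pass (edgeR adjusted p = 0.11). Kcnj12 was at least 251-fold higher in Ai14 aSMCs than in astrocytes (edgeR adjusted p = 0.021) and at least 19.5-fold higher in Ai47 aSMCs than in astrocytes (adjusted p = 0.035), with 3 counts over the group as the floor. Without any 1 of the 5 libraries the fitted Ai14 difference was as large (10.9 to 11.2, against 11.4) with adjusted p of 0.052 to 0.058. The Ai47 call was lost without Ai47 replicate 4 (adjusted p = 0.059), which held 173 of the 215 counts and without which the limit was at least 4.73-fold, and without astrocyte replicate 1 (0.075), 2 (0.068) or 3 (0.087), as well as with library totals alone (0.078) and with the Ai47 columns as 1 library (0.091). The exact permutation test of Ai47 aSMCs against astrocytes gave p = 0.095 (two-sided). DESeq2 gave Kcnj12 no adjusted p against astrocytes in either aSMC group.

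Kcnj2 ranged over 0.243 to 3.76 CPM (median 0.538) in Ai47 aSMCs, was 8.19 and 11.7 CPM in Ai14 aSMCs, 0, 0.127 and 2.83 CPM in astrocytes, and 3.40 to 23.1 CPM (median 10.1) in cortex. Ai14 aSMCs lay within the cortex range and astrocytes lay below it, and Ai47 aSMCs lay below it except for 1 library above the lowest cortex library. Kcnj2 fell by 3.37 ± 0.82 in Ai47 aSMCs against cortex (edgeR adjusted p = 0.0021). The difference was -4.28 without Ai47 replicate 4, and with the Ai47 columns as 1 library it was -3.36 (adjusted p = 0.11). The difference of Ai47 from Ai14 aSMCs was -3.16 ± 1.20 (adjusted p = 0.059) and passed without Ai47 replicate 4 (-3.62, adjusted p = 0.039). In astrocytes against cortex it was -3.50 ± 1.39 (adjusted p = 0.056), and without astrocyte replicate 3, which held 56 of the 57 counts, -7.60 (adjusted p = 0.0048). It passed as well without cortex replicate 6 (adjusted p = 0.048), with DESeq2's size factors (0.037) and in DESeq2 (0.0016). Kcnj12 per kb was 2.98 to 5.23 times Kcnj2 in Ai14 aSMCs and 0 to 0.834 times in cortex, so the order of these genes differed between those groups in every library.

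Kcna5, the gene of the Kv1.5 pore, was highest in Ai14 aSMCs. It ranged over 0.314 to 10.6 CPM (median 1.51) in Ai47 aSMCs, was 16.6 and 17.9 CPM in Ai14 aSMCs, 0.187, 0 and 0 CPM in astrocytes, and 0 to 2.40 CPM (median 0.690) in cortex. Ai14 libraries lay above all others, and Ai47 libraries overlapped with cortex and lay above the astrocytes. The difference of Ai47 from Ai14 aSMCs was -2.46 ± 1.39 and did not pass (edgeR adjusted p = 0.21). Summed counts were 331 times as high in Ai14 aSMCs as in astrocytes (95% interval 91.4 to 2740, from 1136 and 2 counts; edgeR adjusted p = 0.015) and 64.6 times as high in Ai47 aSMCs as in astrocytes (17.8 to 535, from 474 and 2 counts; adjusted p = 0.020). Without Ai47 replicate 5, which held 262 of the 474 counts, the Ai47 ratio was 35.1 (9.59 to 291). The Ai14 call was lost without Ai14 replicate 8 (adjusted p = 0.0504), and the Ai47 call without astrocyte replicate 3 (adjusted p = 0.052), with library totals alone (0.11) and with the Ai47 columns as 1 library (5.84, adjusted p = 0.081). The fitted difference of Ai14 aSMCs from astrocytes was 8.01, and it was 11 without astrocyte replicate 1, which held both astrocyte counts, and 7.22 without astrocyte replicate 3. That of Ai47 aSMCs was 5.55, and it was 8.88 without astrocyte replicate 1 and 6.14 without Ai47 replicate 1. Against cortex, Kcna5 was 4.36 ± 1.41 in Ai14 aSMCs (adjusted p = 0.074) and 1.94 ± 1.07 in Ai47 aSMCs (adjusted p = 0.13). The difference of Ai14 aSMCs from cortex passed in DESeq2 (adjusted p = 0.048) and with library totals alone (0.034).

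Kcnq5, a Kv7 pore gene known from neurons and arteries, was highest in cortex. It ranged over 0 to 0.786 CPM (median 0.0467) in Ai47 aSMCs, was 0.487 and 0.515 CPM in Ai14 aSMCs, 0, 0 and 0.556 CPM in astrocytes, and 0.396 to 13.8 CPM (median 3.36) in cortex. Its 22 counts over the 6 Ai47 libraries were below the filter, and an exact permutation test over the 12 libraries gave p = 0.0043 (two-sided), where the smallest p the 924 assignments allow is 0.0022. In the fit of all 17 libraries, an alternative for this comparison, the difference of Ai47 aSMCs from cortex was -4.70 ± 1.34 (edgeR adjusted p = 0.0064), and with the Ai47 columns as 1 library it was -4.77 (adjusted p = 0.14). The difference of astrocytes from cortex was -4.49 ± 1.81 (adjusted p = 0.060). It was -9.37 without astrocyte replicate 3, which held all 11 counts (adjusted p = 0.020), and -4.90 without cortex replicate 4 (adjusted p = 0.049), and DESeq2 called it (adjusted p = 0.0058). Ai14 aSMCs differed from cortex by -3.21 (adjusted p = 0.40).

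**Figure D3:**
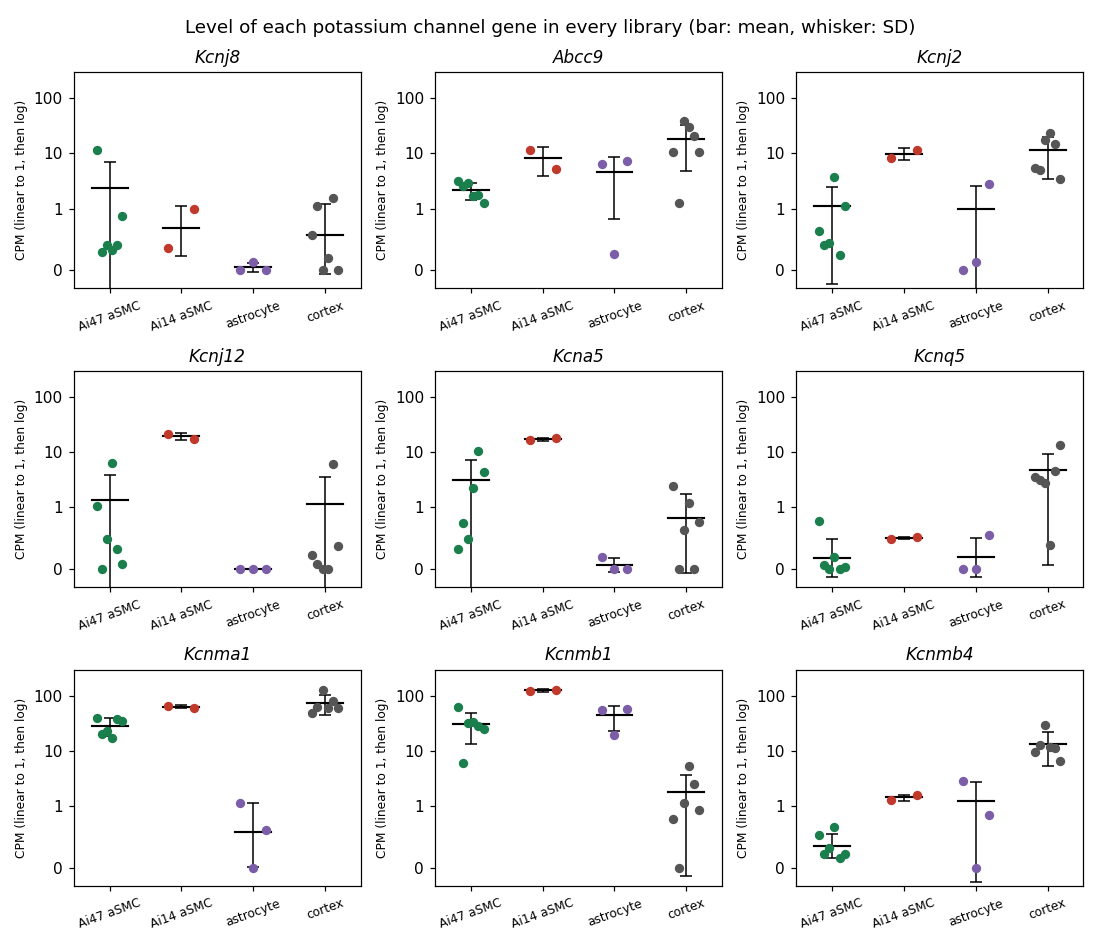
CPM of each of the 9 genes in every library of Ai47 aSMCs, Ai14 aSMCs, astrocytes and cortex (points), with the mean (bar) and SD (whisker, cut at the lower edge of the panel where it runs further down); the axis is linear to 1 CPM and logarithmic above. Kcnmb1 is at 120.5 and 130.0 CPM in Ai14 aSMCs and at most 5.34 CPM in cortex, and Kcnj12 has no counts in astrocytes.

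Over the 9 genes, Ai47 aSMCs against cortex gave 1 higher (Kcnmb1) and 4 lower (Abcc9, Kcnj2, Kcnma1 and Kcnmb4) of 6 tested, where 33.6% of all 11548 genes tested were higher and 25% were lower (58.6% in all); at an unadjusted p under 0.05, 5 of the 6 passed, and DESeq2 called 5. Ai14 aSMCs against cortex gave 1 higher (Kcnmb1) and 0 lower of 9, with 3.97% and 2% over all 14927 genes (5.97% in all). At an unadjusted p under 0.05, 4 of the 9 passed in that comparison in edgeR, and DESeq2 called 3. Astrocytes against cortex gave 1 higher (Kcnmb1) and 2 lower (Kcnma1 and Kcnmb4) of 9, with 14.6% and 19.8% over all genes (34.5% in all). There 6 of the 9 passed at an unadjusted p under 0.05, and DESeq2 called 7. Ai47 aSMCs against astrocytes gave 4 higher (Kcnj8, Kcnj12, Kcna5 and Kcnma1) and 0 lower, with 26.1% and 23.8% over all genes (49.9% in all), 4 at an unadjusted p under 0.05 and 3 in DESeq2. Those 3 were Kcna5 and Kcnma1, higher, and Kcnmb4, lower, and DESeq2 gave Kcnj8 and Kcnj12 no adjusted p. Ai14 aSMCs against astrocytes gave 3 higher (Kcnj12, Kcna5 and Kcnma1) and 0 lower, with 13.6% and 3.56% over all genes (17.1% in all), 4 at an unadjusted p under 0.05 and 2 in DESeq2. Ai47 against Ai14 aSMCs gave 0 of 9 in edgeR, with 3 at an unadjusted p under 0.05 and 0 in DESeq2, where 25.6% of all genes passed (9.55% higher and 16% lower). The median log2 difference of the genes tested was -2.12 in Ai47 aSMCs against cortex and -2.0 in Ai47 against Ai14 aSMCs, beside 0.32 and -0.42 over all genes tested. The first covers the 6 genes past the filter. Over all 9 genes it was -1.04 with no filter and -1.34 in the fit of 17 libraries.

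**Figure D4:**
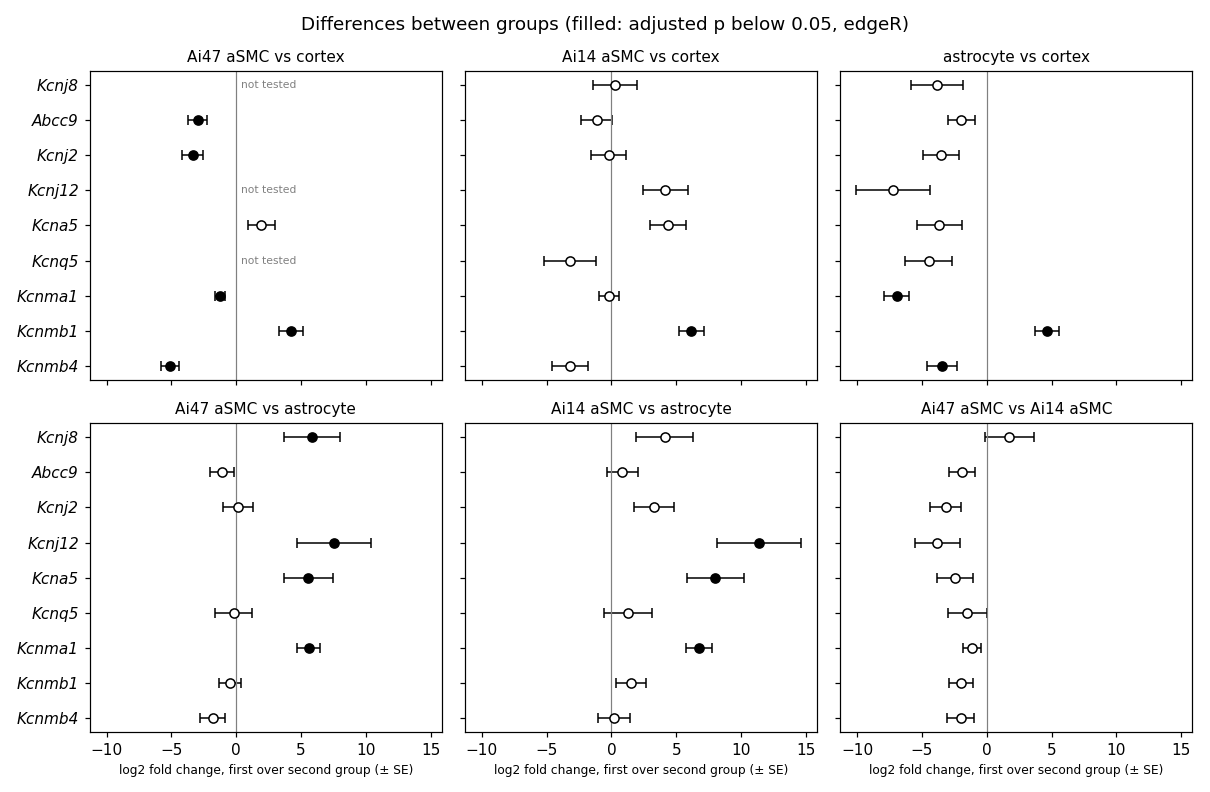
Log2 fold change (first group over second, ± SE, from edgeR) of the 9 genes in 6 comparisons; filled points have an adjusted p under 0.05, and genes below the count filter are marked as not tested. Kcnmb1 is the 1 gene above 0 and filled in all 3 comparisons with cortex, at 4.21 in Ai47 aSMCs, 6.16 in Ai14 aSMCs and 4.65 in astrocytes.

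The order of the 9 levels per kb differed between groups. In Ai47 aSMCs it ran Kcnmb1 (7.49 CPM per kb), Kcnma1 (1.71), Kcna5 (1.09), Kcnj8 (0.911), Kcnj12 (0.503), Abcc9 (0.263), Kcnj2 (0.202), Kcnmb4 (0.106) and Kcnq5 (0.0231). Kcna5, Kcnj8, Kcnj12, Kcnj2 and Kcnq5 had SDs above their means there, so neighbours in the order from Kcna5 to Kcnj2 did not differ beyond their spread. In Ai14 aSMCs it ran Kcnmb1 (29.9 CPM per kb), Kcnj12 (7.14), Kcna5 (6.03), Kcnma1 (3.76), Kcnj2 (1.83), Abcc9 (0.998), Kcnmb4 (0.434), Kcnj8 (0.268) and Kcnq5 (0.0652). In astrocytes Kcnmb1 (10.5 CPM per kb) led, followed by Abcc9 (0.561) and Kcnmb4 (0.377). In cortex the order opened with Kcnma1 (4.33 CPM per kb), Kcnmb4 (4.09), Abcc9 (2.21) and Kcnj2 (2.12), ahead of the others. With the longest transcript as length, Kcnmb4 changes places with Kcnma1 in cortex, with Abcc9 in astrocytes and with Kcnj2 in Ai47 aSMCs, and Kcnmb1 with Kcnj12 in cortex. Among 93 potassium channel genes by CPM per kb, Kcnmb1 ranked 3 in Ai47 aSMCs, 1 in Ai14 aSMCs, 3 in astrocytes and 41 in cortex.

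The other potassium channel genes numbered 84 in the matrix. In Ai47 aSMCs against cortex, 4 rose and 20 fell of 29 tested, beside 33.6% and 25% of all genes. In Ai14 aSMCs against cortex, 3 rose and 6 fell of 56, beside 3.97% and 2% of all genes, and in astrocytes against cortex, 2 rose and 26 fell of 56, beside 14.6% and 19.8%. Kcnk3, a two-pore-domain background channel gene, was 248 to 384 CPM (median 295) in Ai47 aSMCs, 16.3 to 20.1 CPM in Ai14 aSMCs, 0 in astrocytes and 0 to 2.37 CPM in cortex. It rose by 8.22 in Ai47 aSMCs and by 4.07 in Ai14 aSMCs against cortex (edgeR adjusted p = 7.6e-09 and 0.0014) and was 4.04 higher in Ai47 than in Ai14 aSMCs (adjusted p = 0.0057). The Kv accessory genes Kcnab1 and Kcne4 rose in both aSMC groups against cortex as well, by 5.51 and 3.93 in Ai47 aSMCs and by 4.38 and 6.02 in Ai14 aSMCs. Kcnj10 and Kcnj16, inward rectifiers of glia, had 362 ± 291 and 150 ± 53.6 CPM in astrocytes (SD, n = 3) and 310 ± 140 and 46.6 ± 23.2 CPM in cortex (SD, n = 6).

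Of 22 genes for the calcium entry, calcium release and chloride and cGMP pathways that act with these channels on membrane potential, 10 rose and 2 fell of 19 tested in Ai47 aSMCs, 7 rose and 0 fell of 20 in Ai14 aSMCs, and 2 rose and 11 fell of 20 in astrocytes, all against cortex. Over all genes, 33.6% rose and 25% fell in Ai47 aSMCs, 3.97% and 2% did in Ai14 aSMCs, and 14.6% and 19.8% did in astrocytes. The 2 that rose in astrocytes were the protein kinase genes Prkg1 (3.31, adjusted p = 0.0019), for the cGMP-dependent kinase, and Prkaca (1.75, adjusted p = 0.0035), for the cAMP-dependent kinase. These genes, Cacna1c and Ryr2 are named after their values were seen. Cacna1c and Ryr2 encode the L-type calcium channel pore and the ryanodine receptor that releases calcium sparks onto BK channels. Cacna1c rose by 2.05 in Ai47 aSMCs and by 4.01 in Ai14 aSMCs and fell by 4.91 in astrocytes against cortex (edgeR adjusted p = 0.0026, 0.00069 and 0.00030). Ryr2 fell by 4.72 in astrocytes against cortex (adjusted p = 0.0014) and was -0.16 in Ai47 aSMCs (adjusted p = 0.83) and 2.39 in Ai14 aSMCs (adjusted p = 0.084) against cortex.

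Genes whose level went most closely with each channel gene were ranked by Pearson's r of log2(CPM + 0.5) over the 17 libraries, among 8880 genes. These libraries share 4 groups and their depths, so r is a description that largely follows the differences between groups. For Kcnmb1 they were Hipk3 (r = 0.932), Irf2bp2 (0.898) and the contractile regulator gene Cald1 (0.896), for Kcnma1 Fgf1 (0.967), Myh10 (0.965) and Flt1 (0.965), and for Kcnmb4 the GABA receptor gene Gabra4 (0.980), Dbn1 (0.973) and Gabbr2 (0.971). For Kcnj12 they were the soluble guanylate cyclase gene Gucy1b1 (0.846), Map3k7cl (0.832) and Sox6 (0.814), and for Kcna5 Olfml2a (0.890), Susd5 (0.881) and the collagen gene Col18a1 (0.879). For Kcnj2 they were Lcor (0.944), Dusp7 (0.939) and Tpcn1 (0.931), and for Kcnq5 Shisa9 (0.927), Zfp385a (0.916) and Golga7b (0.916). The KATP genes shared none: for Kcnj8 they were Tie1 (0.853), Entpd4 (0.803) and Zfp607a (0.803), and for Abcc9 F5 (0.834), Pdzd4 (0.820) and Gtdc1 (0.819).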

How the data were processed

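The deposited file holds raw counts of reads per gene symbol, which the authors did not normalize, for 21640 genes in 17 bulk RNA-seq libraries, and 0 columns were without a sample. The study's methods name TopHat and htseq-count. The submitters' processing notes list Salmon 1.4.0, Trim Galore 0.6.7, MultiQC 1.13 and FastQC 0.11.9 and the build GRCm38. Which of them made the counts is not stated, nor is the strand setting. Ai47 aSMCs and cortex were compared over their 12 libraries (11548 genes) and the other groups in 1 fit of all 17 (14927 genes), with edgeR 4.0.16 in R 4.3.3 (filterByExpr with a minimum count of 10, TMM, quasi-likelihood test, Benjamini-Hochberg adjustment over all genes tested). For each channel gene, log2(CPM + 0.5) was also compared over libraries by exact permutation, two-sided. CPM used the TMM scale of 17 libraries. Intervals and floors (3 counts) cover counting error only. Alternatives were other scales (library totals alone, the size factors of DESeq2, no mitochondrial genes), other filters, DESeq2 1.42.0, a robust estimate, all 17 libraries, replicate blocks, the Ai47 columns as 1 library, each library left out and the longest transcript as length. Leaving out cortex replicates 1 to 3 or 4 to 6 together, the summed count ratios without each Ai47 library, and the median over all 9 genes were chosen after seeing the data. The fit was also run on simulated data in which only genes of higher counts were changed. That run does not test genes of few counts, and no result above rests on it. Coordinates and lengths came from GENCODE M21 (97.42% of symbols matched) and promoter windows from RefSeq. All 9 genes are named, with the 3 genes most like each, the 3 highest other potassium channel genes per kb in each group, and up to 2 markers of a cell type. The genes and lists were chosen with earlier results of these data known.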

Additional observations from a re-analysis of the deposited data

Results flagged for a closer look

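In 18 groups of 6 libraries (9 genes in Ai47 aSMCs and in cortex), 7 had 1 library that stood apart from the rest by Dixon's test at 95%. That test flags about 1 of 20 groups where values are normally distributed. It was run on CPM, which is skewed for genes of few counts, so the 7 cannot be set against that rate. In Ai47 aSMCs these were Kcnj8 in replicate 1 (11.6 CPM), Kcnj2 in replicate 4 (3.76 CPM), Kcnj12 in replicate 4 (6.37 CPM) and Kcnq5 in replicate 1 (0.786 CPM). In cortex they were Kcnj12 in replicate 5 (6.20 CPM), Kcnq5 in replicate 6 (13.8 CPM) and Kcnmb4 in replicate 3 (29.8 CPM). Both inward rectifier genes stood apart in the same Ai47 library. No value for Kcnma1, Kcnmb1, Kcna5 or Abcc9 stood apart in these groups.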

How the results depend on the processing

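The counts of channel genes called moved in few settings. With the Ai47 columns as 1 library, 1 was lower in Ai47 aSMCs against cortex and 1 higher against astrocytes. With DESeq2, 2 were higher and 1 lower in Ai14 aSMCs against cortex, 6 lower in astrocytes against cortex, and 2 higher and 1 lower in Ai47 aSMCs against astrocytes. With library totals alone, 3 were higher in Ai14 aSMCs against cortex, 1 lower in astrocytes against cortex, 8 lower in Ai47 against Ai14 aSMCs, and 1 higher and 3 lower in Ai47 aSMCs against astrocytes. Totals alone moved the median of all genes by -1.45, 0.86, 0.88, -2.18 and -2.11 in Ai47, Ai14 and astrocytes against cortex, Ai47 against Ai14 aSMCs and Ai47 aSMCs against astrocytes, so those splits follow the scale. With at least 1 CPM in 6 libraries, 2 were higher in Ai47 aSMCs against astrocytes, and without cortex replicates 1 to 3, 1 was lower in astrocytes against cortex.

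Leaving out 1 library gave 1 to 2 higher in Ai14 aSMCs against cortex, 2 to 4 lower in astrocytes against cortex, 0 to 1 lower in Ai47 against Ai14 aSMCs, 2 to 4 higher and 0 to 1 lower in Ai47 aSMCs against astrocytes, and 1 to 3 higher in Ai14 aSMCs against astrocytes.

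Same-numbered libraries did not deviate together (correlations of -0.0447 to 0.0351), so no pairing by number was seen. These correlations run over all genes tested, many of few counts, and cannot exclude shared animals. With a replicate block, 1 was lower in astrocytes against cortex and 0 were higher in Ai47 aSMCs against astrocytes, in fits of replicates 1 to 3, where Kcnma1 was 6.09 higher in Ai47 aSMCs (adjusted p = 0.062) and Kcnmb4 -5.03 in astrocytes against cortex (adjusted p = 0.25). With a replicate block in the 12 libraries, the 6 genes tested kept their calls against cortex, and Kcnmb1 was 4.80 higher in Ai47 aSMCs than in cortex.

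Signs reversed only in differences that were not past the threshold. In Ai14 aSMCs against cortex, totals alone gave 0.87 for Kcnj2 and 0.76 for Kcnma1, and Kcnj8 was -0.24 with DESeq2's size factors, -0.25 with DESeq2 and -0.88 to 0.65 with 1 library left out. In Ai47 against Ai14 aSMCs, Kcnj8 was -0.55 with totals alone and -0.13 to 3.15 with 1 left out. In Ai47 aSMCs against astrocytes, Kcnj2 was -2.20 with totals alone and -0.40 to 4.29 with 1 left out, Kcnmb1 was -0.51 to 0.21 with 1 left out, and Kcnq5 was 0.074 with size factors, 0.27 without mitochondrial genes, 0.13 with no filter, 0.10 with DESeq2 and -1.37 to 4.84 with 1 left out. In Ai14 aSMCs against astrocytes, Kcnmb4 was -0.21 with size factors, -0.23 with DESeq2 and -0.44 to 1.52 with 1 left out. The causes were not tested.

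Over all genes, totals alone gave 2279 higher and 4438 lower (in place of 3877 and 2887) in Ai47 aSMCs against cortex, 1067 and 113 (593 and 298) in Ai14 aSMCs against cortex, 3238 and 2086 (2183 and 2962) in astrocytes against cortex, 534 and 6604 (1426 and 2392) in Ai47 against Ai14 aSMCs, and 1830 and 6351 (3893 and 3555) in Ai47 aSMCs against astrocytes. Size factors gave 395 and 401 in Ai14 aSMCs against cortex and 1719 and 856 (2026 and 531) against astrocytes, and removing mitochondrial genes gave 1687 and 1748 in Ai47 against Ai14 aSMCs. DESeq2 gave 504 and 1600 in Ai14 aSMCs against cortex, 2107 and 1859 against astrocytes, and 2555 and 1925 in Ai47 against Ai14 aSMCs. With the Ai47 columns as 1 library, calls in all were 4030 (6764) against cortex, 405 (3818) against Ai14 aSMCs and 2540 (7448) against astrocytes. With the replicate block they were 2450 in Ai47 aSMCs and 1066 (5145 without it) for astrocytes against cortex. Without cortex replicates 1 to 3 or 4 to 6, 375 and 385 passed in Ai14 aSMCs against cortex, in place of 891. With 1 library left out, 222 to 712 passed there, and without Ai14 replicate 7 or 8, 1430 and 1579 in Ai47 against Ai14 aSMCs and 1319 and 1157 (2557) in Ai14 aSMCs against astrocytes. Differences of genes with few counts, such as Kcnj8, Kcnj12 and Kcnq5, moved with single libraries, and the part of depth was not tested.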
